A study of Homo sapiens with 32 samples.

Results

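The 39 genes described here code for proteins of the G2 phase of the cell cycle and of mitosis: cyclins, spindle kinases, checkpoint proteins, kinetochore parts, motors, cytokinesis proteins, mitotic ubiquitin ligase partners and chromosome proteins. They were chosen by gene symbol from a list, out of 23073 genes in the deposited table. Each symbol was found in 1 row of the table, and all 39 passed the filter on low values (at least 1 FPKM in at least 2 libraries), as did 11890 genes in all. The question was how their RNA stood in leukaemia cells given inhibitors of the histone demethylase KDM1A.

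Dividing cells make most of these RNAs late in the cycle. In quiescent and G1 cells the DREAM complex, which holds E2F4 and the MuvB proteins, represses the genes; later, B-Myb (MYBL2) and FOXM1 join MuvB and activate them. This control acts largely through a promoter element named the cell cycle genes homology region (CHR), with NF-Y bound at nearby CCAAT boxes. The level of these RNAs in a culture is therefore widely used as a measure of how many of its cells are dividing, and in blood cells it falls as progenitors mature and leave the cycle. In RNA from a whole culture, fewer dividing cells and less RNA per dividing cell cannot be told apart.

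The RNA came from 32 cultures of human acute myeloid leukaemia cells, of the lines Kasumi-1 and SKNO-1, 2 lines with the RUNX1-RUNX1T1 fusion. The medium was RPMI, with 20% fetal calf serum for Kasumi-1, and with 10% serum and the cytokine GM-CSF at 10 ng/mL for SKNO-1. Each line received 1 of 4 agents for 24 or 72 h, with 2 biological replicates in each of the 16 groups: the vehicle DMSO at 0.1%, RN-1 at 1 µM, which inhibits KDM1A irreversibly, GSK690 at 1 µM, which inhibits it reversibly, or GSK690* at 1 µM, its isomer, called inactive by the labels. DMSO and GSK690* served as controls, so each set of line and time had 4 inhibitor and 4 control libraries. The later SKNO-1 libraries are titled 72 h, and the treatment protocol gives 4 days for that line. No part of the labels says whether replicates came from separate days, so p-values measure the spread between these cultures. Each line stands for 1 patient's leukaemia grown in culture.

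Promoter sequence is shown first, because it is what most of these genes share beside their function. For 7 members the 120 bases before the annotated start are printed 5′ to 3′ on the gene's strand, from RefSeq on GRCh38.p14. Capitals mark TTTGAA or TTCGAA (the letters of the CHR searched here) and CCAAT, on either strand, so that ATTGG and TTCAAA are the same motifs read on the other strand. The genes are cyclin B2, Polo-like kinase 1, the checkpoint kinase BUBR1 (BUB1B), the centromeric histone CENP-A, the midzone kinesin MKLP1 (KIF23), the spindle motor Eg5 (KIF11) and cyclin A2.
CCNB2: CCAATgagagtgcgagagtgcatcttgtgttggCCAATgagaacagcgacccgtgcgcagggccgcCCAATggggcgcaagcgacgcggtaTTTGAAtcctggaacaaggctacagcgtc
PLK1: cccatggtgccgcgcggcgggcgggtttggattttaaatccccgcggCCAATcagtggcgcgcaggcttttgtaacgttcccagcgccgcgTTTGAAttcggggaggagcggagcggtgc
BUB1B: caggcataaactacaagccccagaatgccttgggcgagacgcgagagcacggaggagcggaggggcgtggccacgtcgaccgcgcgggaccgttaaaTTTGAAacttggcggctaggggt
CENPA: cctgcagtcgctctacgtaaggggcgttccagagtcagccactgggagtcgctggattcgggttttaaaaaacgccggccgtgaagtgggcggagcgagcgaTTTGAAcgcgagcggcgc
KIF23: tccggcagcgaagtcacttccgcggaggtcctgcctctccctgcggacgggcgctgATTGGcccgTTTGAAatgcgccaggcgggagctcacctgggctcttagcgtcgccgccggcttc
KIF11: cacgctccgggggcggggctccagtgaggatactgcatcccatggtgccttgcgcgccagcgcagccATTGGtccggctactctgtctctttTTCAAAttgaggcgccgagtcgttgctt
CCNA2: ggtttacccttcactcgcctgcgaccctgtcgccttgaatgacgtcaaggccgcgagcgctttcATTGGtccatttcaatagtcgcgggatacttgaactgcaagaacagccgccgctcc
The stretches lie at chr15:59105026-59105145 (CCNB2, plus strand), chr16:23678769-23678888 (PLK1, plus strand), chr15:40160949-40161068 (BUB1B, plus strand), chr2:26785936-26786055 (CENPA, plus strand), chr15:69414229-69414348 (KIF23, plus strand), chr10:92593010-92593129 (KIF11, plus strand) and chr4:121823884-121824003 (CCNA2, minus strand). CCNB2 holds 3 CCAAT motifs in this stretch and 1 TTTGAA, PLK1 holds 1 of each, and BUB1B and CENPA hold TTTGAA with no CCAAT. KIF23 and KIF11 hold both motifs. CCNA2 holds 1 CCAAT on the reverse strand and neither of the CHR spellings searched, and other spellings were not looked for.

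A promoter was listed for 34 of the 39 members, and all were read over 300 bases, from 250 before to 50 after the start. TTTGAA or TTCGAA was present in 27 of the 34 genes (79.4%) and in 19.5% of all 27305 genes with a promoter. Within the 60 bases around the start the shares were 61.8% and 3.79%. CCAAT was present in 79.4% of the member genes and 39.7% of all genes, and at 2 or more places in 55.9% and 12.9%. Both kinds of motif stood together in 64.7% and 7.85%. The median GC content was 61.3% in the members' 42 promoters and 58.7% in all 35116, so the members' promoters were not richer in A and T. A match is a run of letters and not a shown binding site, and the lack of a match does not show that the element is absent.

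FPKM (fragments per kilobase of transcript, scaled by the fragments mapped) corrects for gene length and library size. It keeps no absolute depth, and counts of reads were not used. A library's FPKM summed to 332648 to 395945, with 10551 to 10970 genes at 1 FPKM or more, and Pearson's r across genes between the replicates of a group was 0.986 to 0.996. For the 16 libraries at 72 h the cell line in the authors' sample table is the opposite of that in the GEO title. The GEO titles were used, by which each of these had an r of 0.974 to 0.986 with its own line at 24 h and of 0.848 to 0.870 with the other line. The blast markers CD33, KIT, CD34, MPO, SPI1 and RUNX1T1 summed to at least 1470 FPKM in every library, most of it from MPO (1218 to 6612 FPKM), whereas CD34 had means of 0.172 and 0.477 FPKM in the SKNO-1 controls. Of the markers of other lineages, MS4A1, HBB, HBG1 and PECAM1 were listed at 0 in all libraries, and EPCAM made up nearly all of the 63.0 to 84.3 FPKM in Kasumi-1.

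In Kasumi-1 at 24 h, 37 of the 39 genes fell with the inhibitors and none rose, whereas 11.2% of the 11882 genes tested fell and 9.67% rose. A gene is called fallen or risen where limma's test on log2(FPKM + 1), adjusted over all genes tested, gave p under 0.05. The median log2 change was -0.43, against -0.01 over all genes, and the members ran from -0.62 to -0.13. All 39 changes were below 0. In the same 37 genes every inhibitor library lay below every control library, as it did in 18.2% of all genes. The calls of 27 of the 37 were kept in every fit that left out a library and under every other setting tried. The other 10, AURKB, CDC20, CDC25C, CENPE, CENPF, HMMR, MAD2L1, MKI67, NUSAP1 and SPAG5, lost their call in at least 1 such fit.

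**Figure D1:**
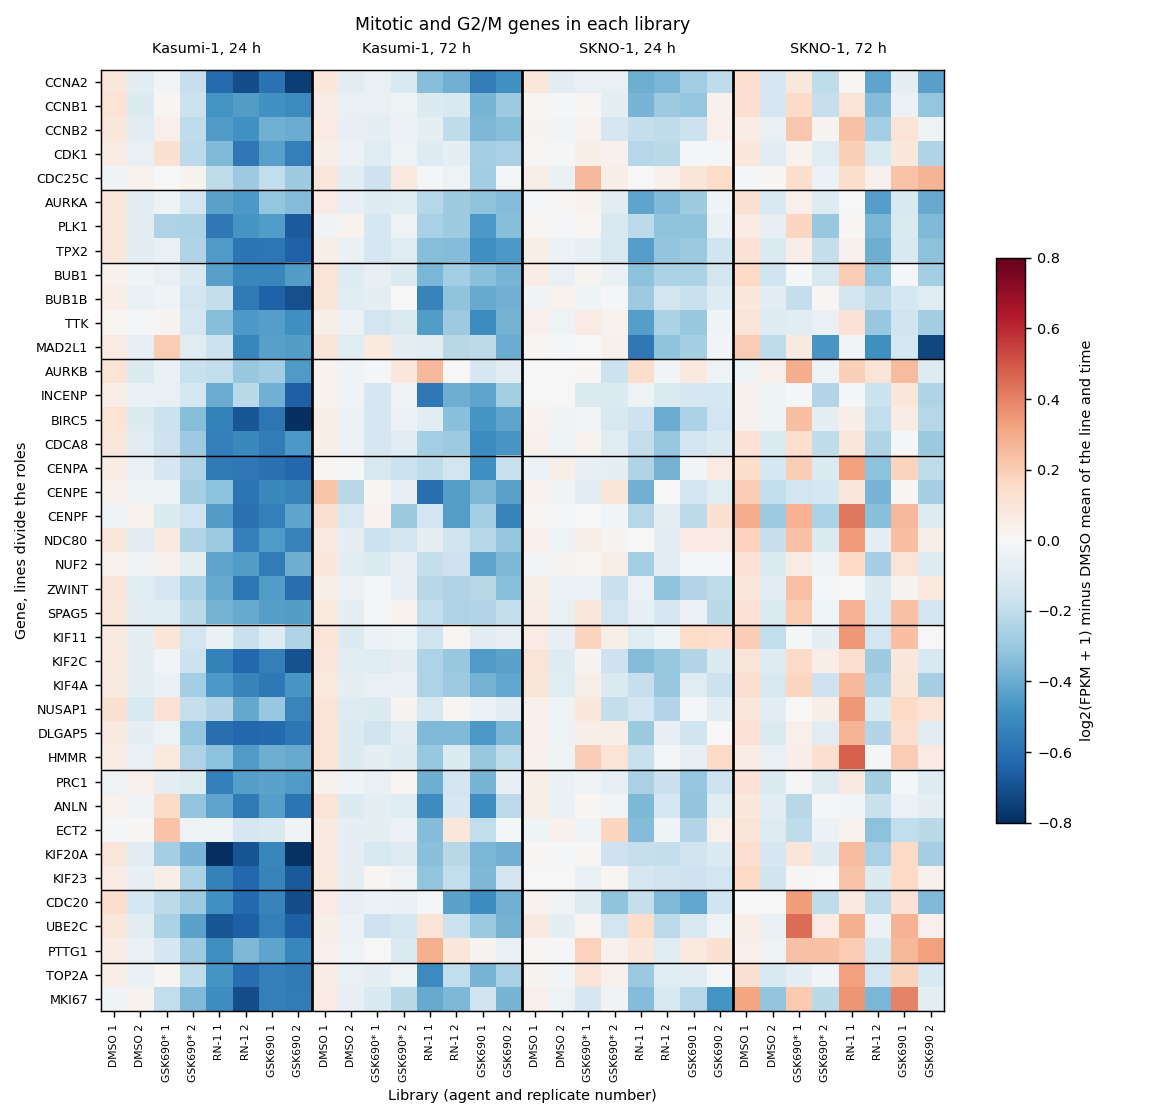
Level of each of the 39 genes in each of the 32 libraries, as the difference in log2(FPKM + 1) from the mean of the 2 DMSO libraries of the same line and time (colour scale), with lines between the roles. In Kasumi-1 at 24 h the RN-1 and GSK690 columns are below the controls in nearly every row. In SKNO-1 at 72 h the replicate 1 columns are higher than the replicate 2 columns in most rows.

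Among the cyclins and their kinase, all 5 genes fell in Kasumi-1 at 24 h (median -0.44). CCNA2, which drives S phase and entry into mitosis, had the largest fall of the 39. The gene (ENSG00000145386) lies on chromosome 4 from 122737598 to 122745087 in hg19. It stood at 30.6 and 26.9 FPKM with DMSO, 28.3 and 25.1 with GSK690*, 18.4 and 17.1 with RN-1, and 18.7 and 16.6 with GSK690. The sides lay far apart, and the change was -0.62 ± 0.10 (SE; limma adjusted p = 0.000131). CDK1, the kinase that cyclins A and B switch on, stood at 91.0, 83.8, 95.1 and 75.5 FPKM in the 4 controls and at 68.1, 58.4, 64.3 and 59.5 with the inhibitors. No inhibitor library reached the lowest control, and CDK1 fell by 0.46. CCNB1, the cyclin of mitotic entry, went from 71.2 ± 6.36 to 52.0 ± 0.930 FPKM (SD, n = 4), CCNB2 fell by 0.39, and CDC25C, the phosphatase that activates CDK1, by 0.25.

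The 3 spindle kinase genes and the 4 checkpoint genes all fell there too, with medians of -0.41 and -0.43. PLK1, a kinase of centrosome maturation and mitotic exit, went from 27.7 ± 3.28 to 20.5 ± 1.49 FPKM. AURKA, which builds the spindle poles, went from 31.6 ± 2.29 to 24.8 ± 1.25 FPKM, and its activator TPX2 from 48.0 ± 4.62 to 33.8 ± 1.95. BUB1B, which holds back anaphase until chromosomes are attached (ENSG00000156970, chromosome 15, 40453223 to 40513337, hg19), stood at 20.0 and 18.5 FPKM with DMSO, 18.9 and 17.2 with GSK690*, 16.7 and 12.7 with RN-1, and 11.9 and 11.4 with GSK690. Its RN-1 replicate 1 lay just below the lowest control, and BUB1B fell by 0.48 ± 0.08 (limma adjusted p = 0.000174). The other checkpoint genes, BUB1, TTK and MAD2L1, fell by 0.44, 0.40 and 0.42.

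All 4 genes of the chromosomal passenger complex, which corrects faulty attachments, and all 7 centromere and kinetochore genes fell in Kasumi-1 at 24 h. Within the complex, its survivin subunit BIRC5 fell most, from 45.9 ± 6.11 to 31.6 ± 2.62 FPKM (-0.52), and its kinase AURKB least, from 18.2 ± 1.64 to 15.1 ± 1.16 (-0.25 ± 0.09, limma adjusted p = 0.0465). INCENP, the scaffold, and CDCA8, or borealin, fell by 0.36 and 0.41. CENPA, the histone that marks the centromere, stood at 16.3, 15, 14.1 and 13.0 FPKM in controls and at 10.2, 10.2, 10.0 and 9.77 with the inhibitors. The inhibitor libraries of CENPA lay close together, all below the controls, and it fell by 0.50. NDC80 and NUF2, partners in the microtubule-binding complex, fell by 0.42 and 0.44, the motor CENPE by 0.42, and CENPF, ZWINT and SPAG5 by 0.44, 0.41 and 0.34.

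Of the 6 motor and spindle genes, 5 fell, and of the 5 midzone and cytokinesis genes, 4 fell. KIF2C, a kinesin that takes microtubules apart at centromeres, had the second largest fall of the set (ENSG00000142945, chromosome 1, 45205489 to 45233439, hg19). Its levels were 39.6 and 35.3 FPKM with DMSO, 36.8 and 33.1 with GSK690*, 25.4 and 23.8 with RN-1, and 25.3 and 22.7 with GSK690 (-0.56 ± 0.09, limma adjusted p = 0.000101). Both inhibitors gave nearly the same KIF2C values, well below all controls. KIF23, which bundles midzone microtubules, and KIF20A, which brings passenger proteins there, both fell by 0.54, and the bundler PRC1 and the contractile ring protein ANLN by 0.42 and 0.46. KIF4A, NUSAP1, DLGAP5 and HMMR, which act on spindle microtubules, fell by 0.35 to 0.52.

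Both genes that did not pass in Kasumi-1 at 24 h have levels close to those of their neighbours. KIF11, the motor that pushes spindle poles apart, stood at 33.2, 29.8, 33.7 and 28.2 FPKM in controls and at 30.3, 27.7, 29.2 and 26.4 with the inhibitors. The sides overlapped (-0.13, 95% interval -0.34 to 0.08, limma adjusted p = 0.393). ECT2, the exchange factor that sets up the cleavage furrow, stood at 14.7, 14.9, 17.6 and 14.4 FPKM in controls and at 14.4, 13.4, 13.6 and 14.6 with the inhibitors. These overlapped too (-0.13, interval -0.34 to 0.09, limma adjusted p = 0.430). For KIF11 the interval leaves out the median fall of the set, -0.43, and for ECT2 it does so as well. KIF11 has both promoter motifs in the stretch shown above.

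The 3 genes tied to the anaphase-promoting complex and both chromosome genes fell at 24 h in Kasumi-1. CDC20, which activates the ligase, went from 28.4 ± 4.03 to 20.3 ± 1.44 FPKM (-0.46), and UBE2C, its ubiquitin-conjugating enzyme, from 28.4 ± 4.49 to 20.1 ± 0.874 (-0.46). PTTG1, or securin, a substrate that keeps sister chromatids joined, fell by 0.34. TOP2A, which untangles sister DNA, stood at 98.6 and 91.2 FPKM with DMSO, 96.0 and 82.2 with GSK690*, 68.1 and 61.8 with RN-1, and 64.4 and 63.9 with GSK690 (-0.50). Every TOP2A inhibitor library lay well below the lowest control. MKI67, which codes for the Ki-67 antigen that coats mitotic chromosomes, went from 31.7 ± 3.83 to 23.0 ± 1.48 FPKM (-0.44 ± 0.14, limma adjusted p = 0.0321). Of the 27 genes with TTTGAA or TTCGAA in the promoter 25 fell (median -0.42), and of the 7 with neither 7 fell (median -0.44).

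**Figure D2:**
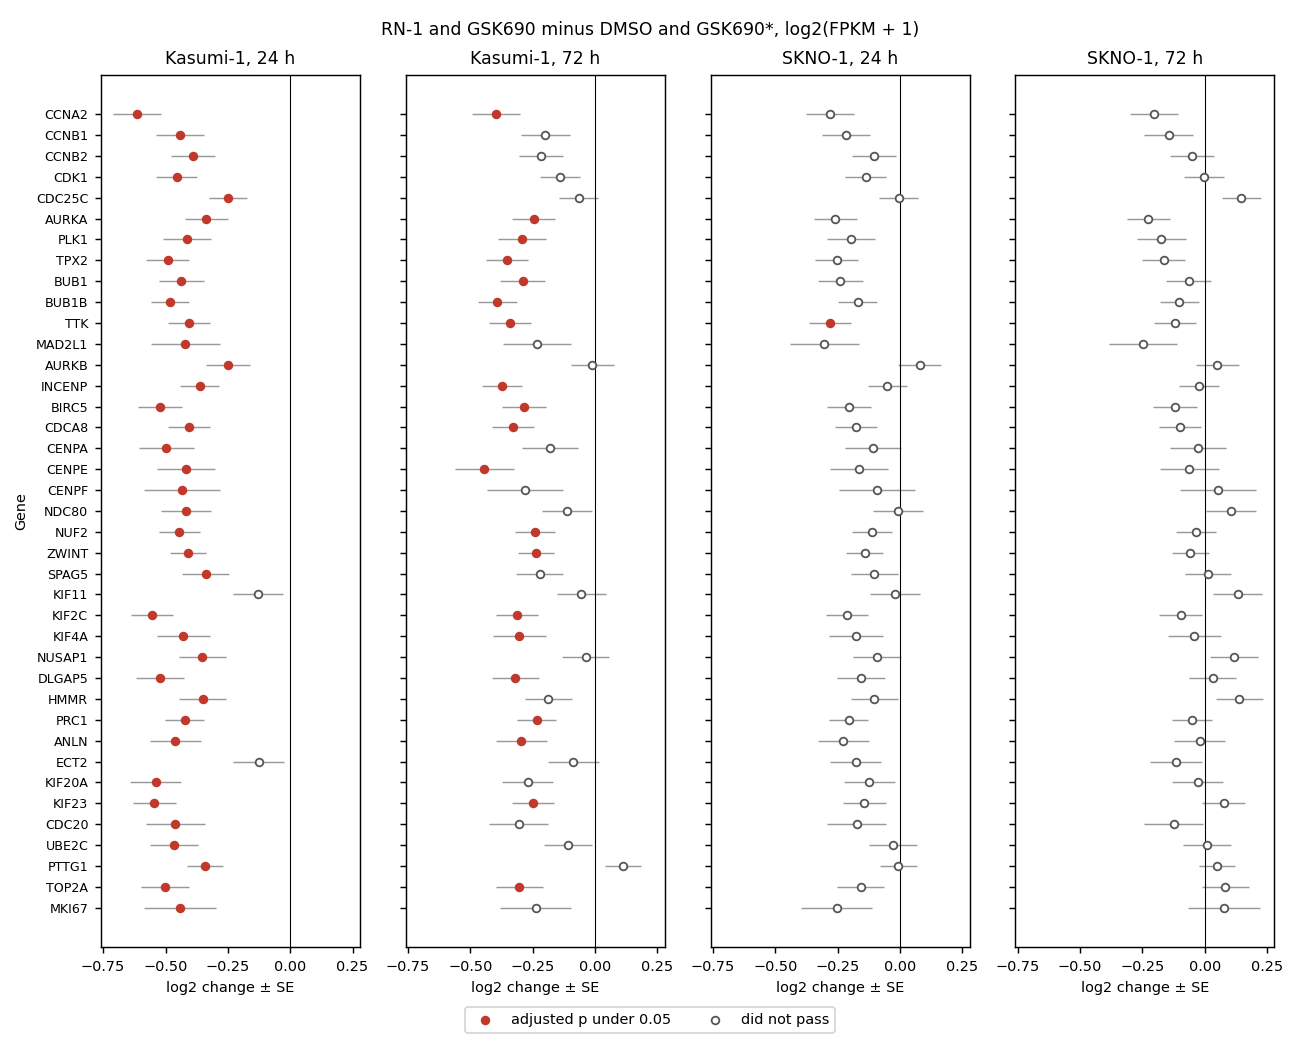
Log2 change of each member, inhibitors minus controls, with bars of 1 SE, in the order of the roles and for each line and time. Filled points passed the limma test: 37 in Kasumi-1 at 24 h, 20 at 72 h, 1 in SKNO-1 at 24 h and 0 at 72 h.

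At 72 h in Kasumi-1, 20 of the 39 genes fell, where 12.7% of all genes tested fell, and none rose, where 13% of all genes did. The median change was -0.25, against -0.02 over all genes, and 38 members were below 0. In 23 genes every inhibitor library lay below every control library, as in 13% of all genes. The call of the fallen genes rested on DMSO replicate 1 more than on other libraries: without it 6 fell, and without GSK690* replicate 1, GSK690* replicate 2 or GSK690 replicate 1 there were 10, and without RN-1 replicate 1 there were 12. The 6 genes called in each of these fits and under all other settings were BUB1B, CCNA2, CDCA8, INCENP, TPX2 and TTK.

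CENPE, the kinesin that carries chromosomes to the spindle equator, had the largest fall at 72 h in Kasumi-1 (ENSG00000138778, chromosome 4, 104026962 to 104119566, hg19). It stood at 14.8 and 10.6 FPKM with DMSO, 12.7 and 12 with GSK690*, 7.96 and 9.03 with RN-1, and 9.60 and 9.09 with GSK690. The lowest control, 10.6, was above all inhibitor libraries, and the change was -0.44 ± 0.12 (limma adjusted p = 0.00813). CCNA2 followed, at 38.3, 34.0, 34.6 and 33.1 FPKM in controls and 28.3, 27.5, 24.3 and 25.5 with the inhibitors (-0.40 ± 0.10, limma adjusted p = 0.00443). Again no CCNA2 values overlapped. BUB1B stood at 24.0, 21.0, 21.2 and 22.4 FPKM in controls and at 15.2, 17.8, 16.7 and 16.9 with the inhibitors (-0.39), with a clear gap between the sides.

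By role, the spindle kinase group was called whole at 72 h in Kasumi-1 (3 of 3, median -0.29), and the checkpoint and passenger groups had 3 of 4 each. PLK1 went from 49.5 ± 2.40 to 40.2 ± 2.49 FPKM (-0.29), AURKA from 42.1 ± 2.41 to 35.3 ± 1.31 (-0.25) and TPX2 from 62.0 ± 3.60 to 48.3 ± 2.62 (-0.35). INCENP fell by 0.37, CDCA8 by 0.33 and BIRC5 by 0.29; of these only BIRC5 overlapped, since RN-1 replicate 1 (54.7 FPKM) lay above GSK690* replicate 1 (53.1). Kinetochore, motor and cytokinesis genes had 3 of 7, 3 of 6 and 3 of 5 called. KIF2C fell by 0.31, KIF4A by 0.30, DLGAP5 by 0.32, ANLN by 0.30, KIF23 by 0.25 and PRC1 by 0.23. TOP2A fell by 0.30, from 105 ± 4.53 to 84.9 ± 8.05 FPKM, and MKI67 did not pass, at 40.3 ± 3.44 and 34.0 ± 2.81 FPKM (limma adjusted p = 0.233).

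CCNA2 was the only 1 of the 5 cyclin and CDK1 genes to pass at 72 h in Kasumi-1, and none of the 3 genes tied to the anaphase-promoting complex did. CCNB1 stood at 82.7, 76.3, 76.2 and 77.2 FPKM in controls and at 73.5, 72.9, 61.0 and 64.7 with the inhibitors. These values did not overlap, but the change of -0.20 did not pass (limma adjusted p = 0.142). CDK1 (-0.14, limma adjusted p = 0.214) and CENPA (-0.18, limma adjusted p = 0.251) overlapped and did not pass, and CDC20 was at -0.31 (limma adjusted p = 0.0622). AURKB had the smallest change of the set, at 29.6, 28.5, 28.8 and 30.9 FPKM in controls and 35.0, 29.0, 26.4 and 27.2 with the inhibitors. Its sides were intermixed (-0.01, 95% interval -0.19 to 0.17). PTTG1 was the member above 0 (0.11, interval -0.04 to 0.26, limma adjusted p = 0.272). Its RN-1 libraries stood at 39.5 and 34.5 FPKM, against 29.8 to 33.2 in controls. Its GSK690 libraries, at 32.8 and 30.95 FPKM, lay within the control range.

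The other members that did not pass at 72 h in Kasumi-1 were spread from close to the threshold to near 0. KIF20A (-0.27, limma adjusted p = 0.0573), CCNB2 (-0.22, limma adjusted p = 0.0748) and SPAG5 (-0.22, limma adjusted p = 0.0857) had no overlap between the sides. CENPF was at -0.28 and MAD2L1 at -0.23, with wider spreads between libraries. HMMR (-0.19), NDC80 (-0.11), UBE2C (-0.11), ECT2 (-0.09), CDC25C (-0.07), KIF11 (-0.06) and NUSAP1 (-0.04) all overlapped. KIF11 and ECT2 were thus outside the called genes at both times, whereas UBE2C, NDC80 and NUSAP1 had fallen at 24 h by 0.46, 0.42 and 0.35.

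**Figure D3:**
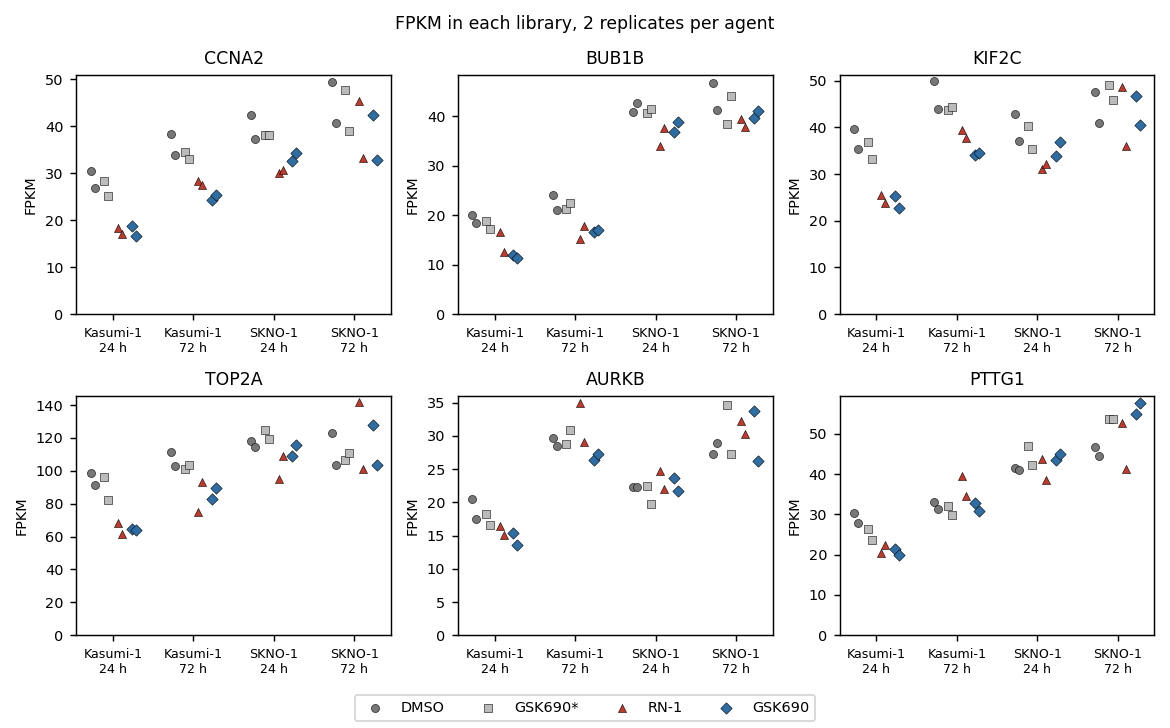
FPKM (vertical axes, from 0) of CCNA2, BUB1B, KIF2C, TOP2A, AURKB and PTTG1 in each of the 32 libraries, by line, time and agent, with a point for each library. CCNA2 is lower with both inhibitors in both Kasumi-1 sets, whereas the sides of AURKB overlap at 72 h in Kasumi-1 and at both times in SKNO-1.

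In SKNO-1 at 24 h, 1 of the 39 genes fell, TTK, where 3.44% of all genes tested fell, and none rose, where 5.65% did. TTK, a kinase that starts checkpoint signalling at kinetochores (ENSG00000112742, chromosome 6, 80713603 to 80752244, hg19), stood at 22.2 and 20.9 FPKM with DMSO, 22.5 and 21.9 with GSK690*, 15.6 and 17.9 with RN-1, and 17.3 and 21.1 with GSK690. GSK690 replicate 2 overlapped the controls, and the change was -0.28 ± 0.08 (limma adjusted p = 0.0406). The call of TTK ended without any library of that set except RN-1 replicate 2 and GSK690 replicate 2; without the latter, 2 members fell. It ended also with no filter, with quantile normalization or the median of ratios, with the 8 libraries fitted alone or as 2 groups of 4, and with GSK690* left out of the controls. The call held with a pseudocount of 0.1 and with a replicate block, under which 13 members fell. The 3.44% of all genes is from the fit without the block. In the fit without the block 38 of 39 members were below 0, and the median was -0.16 against -0.02 over all genes. At an unadjusted p under 0.05, 13 members were lower, as were 1468 of all 11882 genes tested. In 10 genes the sides did not overlap, with the inhibitors lower, as in 8.37% of all genes: CCNA2, TPX2, BUB1, BUB1B, MAD2L1, BIRC5, CDCA8, PRC1, ANLN and KIF23.

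MAD2L1, a subunit of the checkpoint's anaphase inhibitor, had the largest change in SKNO-1 at 24 h, at 53.4, 52.3, 52.8 and 54.2 FPKM in controls and 35.2, 42.1, 43.9 and 52.0 with the inhibitors. The controls were tight and the inhibitor libraries spread, so that the change of -0.30 ± 0.14 did not pass (limma adjusted p = 0.179). CCNA2 stood at 42.5, 37.3, 38.1 and 38.1 FPKM in controls and at 30.1, 30.7, 32.7 and 34.4 with the inhibitors (-0.28, limma adjusted p = 0.0755). AURKA (-0.26, limma adjusted p = 0.0630) and TPX2 (-0.25, limma adjusted p = 0.0646) were next. MKI67 was at -0.25, CCNB1 at -0.22, BIRC5 and PLK1 at -0.20, BUB1B and CDC20 at -0.17, TOP2A at -0.16, CDK1 at -0.14 and CENPA at -0.11, and none of these passed. PTTG1 and CDC25C were both at -0.01, CDC25C with 4.82, 4.39, 5.71 and 4.80 FPKM in controls and 4.61, 4.77, 4.98 and 5.21 with the inhibitors. AURKB, at 0.08, was the member above 0 (interval -0.10 to 0.26). Of the genes not followed by name, BUB1 (-0.24), ANLN (-0.23), KIF2C and PRC1 (both -0.21) were lowest and NDC80 (-0.01), KIF11 (-0.02) and UBE2C (-0.03) closest to 0.

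At 72 h in SKNO-1 no member fell or rose by limma, where 4.17% of all genes tested fell and 6.91% rose. At an unadjusted p under 0.05, 2 members, AURKA and CCNA2, were lower, as were 1622 of all 11882 genes tested. The median change was -0.03, against -0.02 over all genes, with 25 of 39 below 0; with quantile normalization 17 were below 0 and the median was 0.00, so that no common direction held. No member had all inhibitor libraries below all controls, as 6.67% of all genes had. Without RN-1 replicate 1, 3 members fell, and without DMSO replicate 2 or GSK690* replicate 2, 1 did. With a replicate block 4 fell: AURKA, CCNA2, MAD2L1 and TPX2. The 4.17% of all genes is from the fit without the block. MAD2L1 was lowest (-0.25, limma adjusted p = 0.258), at 61.0, 45.9, 55.7 and 38.1 FPKM in controls and 52.1, 37.5, 47.9 and 31.5 with the inhibitors. Within each agent replicate 1 of MAD2L1 was the higher library, and the sides overlapped.

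The same split by replicate ran through the whole set in SKNO-1 at 72 h. The mean log2 level of the 39 genes was 5.32 to 5.41 in replicate 1 of the 4 agents and 5.02 to 5.15 in replicate 2. The sequencing library names there carry 2 prefixes: within the prefix with 1 library per side the median change was 0.05, and within the one with 3 per side it was -0.06. AURKA was second lowest at 48.5, 40.9, 45.8 and 41.3 FPKM in controls and 44.5, 32.5, 40.8 and 33.5 with the inhibitors (-0.23, limma adjusted p = 0.0942). CCNA2 was at -0.20, PLK1 at -0.17, CCNB1 at -0.14, BIRC5 and CDC20 at -0.12, BUB1B at -0.10, CENPA at -0.03, PTTG1 and AURKB at 0.05, and TOP2A and MKI67 at 0.08. CDK1 had the smallest change (-0.00, interval -0.17 to 0.17), at 75.9, 67.5, 73.0 and 66.9 FPKM in controls and 82.0, 65.8, 75.9 and 60.5 with the inhibitors. CDC25C was highest (0.15, limma adjusted p = 0.236), with HMMR (0.14), KIF11 (0.13), NUSAP1 (0.12) and NDC80 (0.10) next, and TTK was at -0.12.

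**Figure D4:**
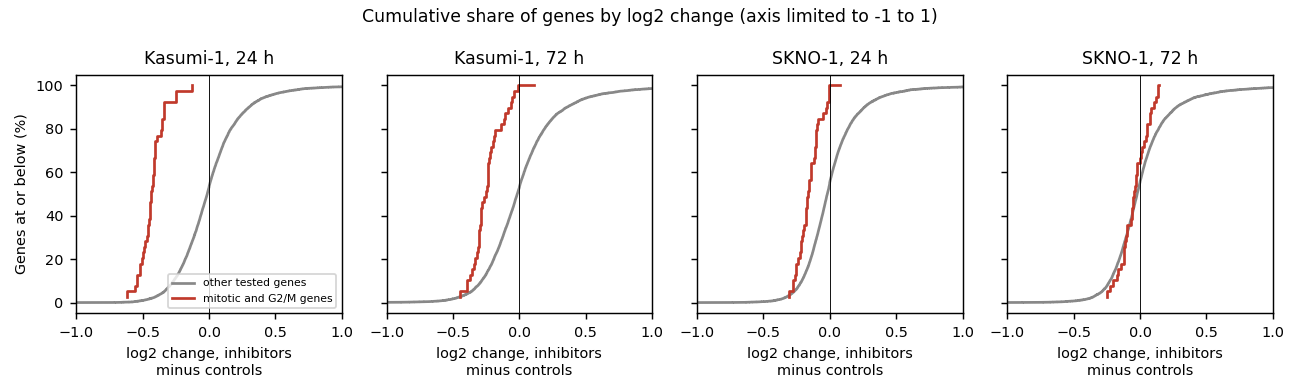
Cumulative share of genes (vertical axis, percent) by log2 change of the inhibitors against controls (horizontal axis), for the 39 members and for the other tested genes, in each set. The members' curve lies left of the other curve in Kasumi-1 at 24 h and on it in SKNO-1 at 72 h. Medians of the members and of all 11882 genes tested were -0.43 and -0.01 in the former. In the latter they were -0.03 and -0.02.

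The differences between these sets were tested as interaction terms, and no member passed in any of the 4, where between 0 and 3.48% of all genes did. In Kasumi-1 the response at 72 h minus that at 24 h had a median of 0.18 (all genes 0.01), with 37 of 39 above 0. Of all genes 0.202% passed there. An unadjusted p under 0.05 was found for 6 members and for 621 of all 11882 genes. PTTG1 had the largest such difference (0.45 ± 0.10, limma adjusted p = 0.0788), followed by UBE2C (0.35). In SKNO-1 the median was 0.09, limma passed 0 of all genes, and 0 members had an unadjusted p under 0.05, which 153 of all genes had. The response of Kasumi-1 minus that of SKNO-1 at 24 h had a median of -0.27, with 38 of 39 below 0, led by UBE2C (-0.44, limma adjusted p = 0.159) and KIF20A (-0.42). Of all genes 1.12% passed. An unadjusted p under 0.05 was found for 19 members and, in either direction, for 1182 of all genes. At 72 h the median was -0.21, with 36 below 0, led by TOP2A (-0.39, limma adjusted p = 0.135). There 7 members had an unadjusted p under 0.05, as had, in either direction, 1760 of all genes. The count of 0 members passing holds for the fit without a replicate block, as do the shares of all genes given here. With the block, 2 members differed between times in Kasumi-1, and 13 and 5 between the lines at 24 and 72 h. These 4 differences share sets of libraries with each other. All 24 h library names carry a prefix that no 72 h library name carries, and the labels do not say what it marks. A difference in response between times cannot be told apart from a difference between prefixes.

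Each inhibitor was also compared with its own control. RN-1 against DMSO called 26 members lower in Kasumi-1 at 24 h (3.59% of all genes), with a median of -0.48, and GSK690 against GSK690* called 8 lower (1.41%), with a median of -0.38. KIF20A (-0.75 ± 0.15, limma adjusted p = 0.00231), UBE2C (-0.67) and CCNA2 (-0.66) led with RN-1. BUB1B (-0.58 ± 0.11, limma adjusted p = 0.00283), CCNA2 (-0.57) and KIF2C (-0.53) led with GSK690, and KIF23, TPX2, NUF2, CDK1 and INCENP fell as well. Leaving out 1 library leaves an arm with 1, which is assumed to vary like the other groups: the 26 became 1 without DMSO replicate 1, 4 without RN-1 replicate 2, 12 without RN-1 replicate 1 and 16 without DMSO replicate 2. The 8 became 0 without GSK690* replicate 1 or GSK690 replicate 2 and 3 without GSK690 replicate 1. With a replicate block the 8 became 27. The shares of all genes given here are from the fit without the block.

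At 72 h in Kasumi-1, RN-1 against DMSO called TTK, BUB1B, INCENP and CENPE lower (4 genes; 4.61% of all), and GSK690 against GSK690* called CCNA2, CDCA8 and BUB1B lower (3 genes; 3.73% of all). Both medians were -0.26. Without DMSO replicate 1 or RN-1 replicate 1 the 4 became 0, and without RN-1 replicate 2 they became 6; without any 1 of its 4 libraries the GSK690 count was 0. With a replicate block the counts of 4 and 3 became 19 and 20. The 4.61% and 3.73% of all genes are from the fit without the block. In SKNO-1 neither inhibitor called a member at either time, and with the block RN-1 called 11 at 24 h. Without the block, the limma background there was 0.429% and 0.53% of all genes for RN-1, at 24 and 72 h. For GSK690 it was 0.109% and 0.303%. At an unadjusted p under 0.05, RN-1 had 10 members lower at 24 h and 0 at 72 h, and GSK690 had 0 at both times. Of all 11882 genes, 1045 and 705 were lower at that p with RN-1 and 447 and 830 with GSK690. The medians in SKNO-1 were -0.20 and -0.05 for RN-1 and -0.11 and -0.05 for GSK690.

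RN-1 and GSK690, the irreversible and the reversible inhibitor, were set against each other at the same dose and time, in 4 sets of 39 genes. No member passed limma's test adjusted over all genes in any set, where 0 to 0.00842% of all genes did. The medians of RN-1 minus GSK690 were 0.03, 0.11, -0.10 and 0.01, first for Kasumi-1 and then for SKNO-1, each at 24 and then 72 h. At an unadjusted p under 0.05 there were 3 member differences: BUB1B in Kasumi-1 at 24 h (0.30, 95% interval 0.07 to 0.52, higher with RN-1), UBE2C there at 72 h (0.30, interval 0.02 to 0.59) and PTTG1 in SKNO-1 at 72 h (-0.27, interval -0.48 to -0.05). Of all 11882 genes tested, 86, 839, 612 and 120 had such a p in the 4 sets, in the same order. With 2 libraries per agent, a missed threshold does not show that the inhibitors act alike.

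GSK690* was also compared with DMSO, and limma called 0 members in each set, as it did 0 of all genes. At an unadjusted p under 0.05, 3 members were lower in Kasumi-1 at 24 h, UBE2C (-0.34, 95% interval -0.62 to -0.06), KIF20A (-0.32, interval -0.63 to -0.02) and PTTG1 (-0.21), and 1 was higher in SKNO-1 at 72 h, PTTG1 (0.23, interval 0.02 to 0.45). The medians were -0.10 and -0.08 in Kasumi-1 and -0.03 and -0.00 in SKNO-1, at 24 and then 72 h. In Kasumi-1, 36 of 39 members were below 0 at 24 h, between -0.34 and 0.09, and 36 at 72 h. With each library left out in turn these counts were 25 to 38 and 20 to 38, the 20 without DMSO replicate 1. DMSO serves in the contrasts of both RN-1 and GSK690*, so those contrasts are not independent. The part of any DMSO library in these counts was not tested.

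**Figure D5:**
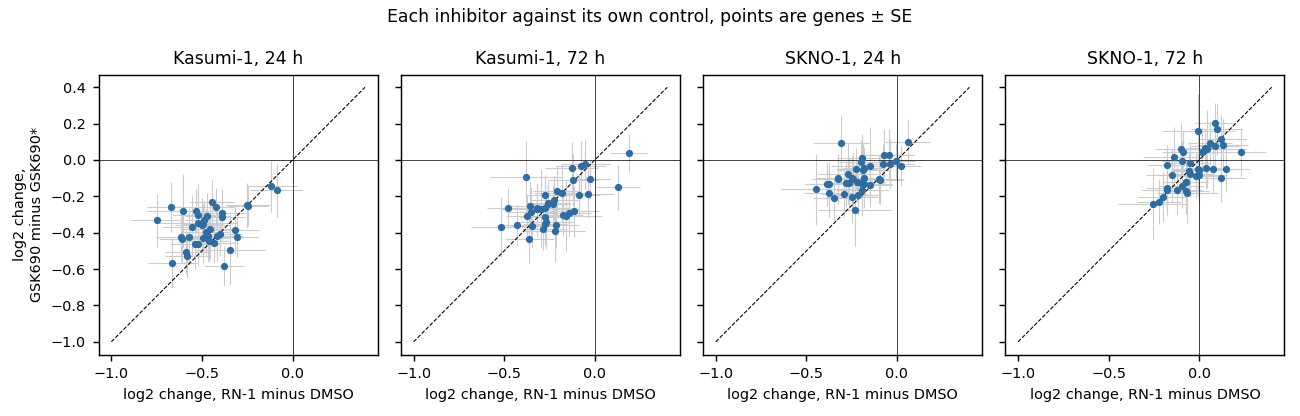
Log2 change of each of the 39 members for RN-1 against DMSO (horizontal axis) and GSK690 against GSK690* (vertical axis), by set, with bars of 1 SE and a dashed line where both are equal. In Kasumi-1 at 24 h all points lie below 0 on both axes, with medians of -0.48 and -0.38.

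Without inhibition the 2 lines held the set at levels of the same order with a few genes far apart. Controls of Kasumi-1 against those of SKNO-1 at 24 h were lower in 20 members and higher in 4, where 38.2% and 30.9% of all genes were lower and higher. At 72 h, 11 were lower and 8 higher (38.2% and 32.6% of all genes). NUSAP1, which holds spindle microtubules to chromatin, was lower by 1.27 at 24 h and 1.11 at 72 h on the log2 scale, with 34.6 ± 3.89 FPKM in Kasumi-1 and 84.6 ± 6.94 in SKNO-1 at 24 h. UBE2C (-1.09 at both times) and BUB1B (-1.11 and -0.91) were the next lowest. SPAG5 (0.83 and 0.91) and ZWINT (0.85 and 0.70), both of the kinetochore, were higher in Kasumi-1, ZWINT at 138 ± 14.4 against 75.9 ± 4.97 FPKM at 24 h.

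The wider cell-cycle machinery was read from 8 further lists, by count and without a test of the list. In Kasumi-1 at 24 h, 22 of 25 DNA replication genes fell and none rose (median -0.49), led by MCM10 (-0.67) and GMNN (-0.65), which act at replication origins. Among other kinetochore genes 19 of 28 fell (CENPM -0.59, SKA1 -0.57), among other kinesins and spindle genes 16 of 22 fell (KIF15 -0.54, KIF18B -0.51), and among condensin, cohesin and separase genes 11 of 16 fell (NCAPH -0.56, SMC1A -0.47). Of 16 subunits and regulators of the anaphase-promoting complex 1 fell, the inhibitor gene FBXO5 (-0.34), near the share of all genes (11.2%), beside the 3 members that work with that ligase. In the G2 checkpoint list 7 of 14 fell (CDC25A -0.58, CLSPN -0.54) and 2 rose (CCNG1 0.36, ATR 0.27), and 4 of 8 G1 cyclin and kinase genes fell (CDK2 -0.45, CCNE1 -0.40). Fallen genes in Kasumi-1 at 24 h thus included genes of S phase as well as of mitosis.

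MYBL2 and FOXM1, the activators named above, were among the genes that fell in Kasumi-1 at 24 h. Their part in the members' fall was not tested. MYBL2 stood at 65.0 and 46.9 FPKM with DMSO, 44.6 and 42.3 with GSK690*, 33.4 and 28.5 with RN-1, and 33.3 and 27.2 with GSK690. All inhibitor libraries were below all controls, and the change was -0.67 (limma adjusted p = 0.00171). FOXM1 stood at 12.7, 11.6, 9.83 and 10.2 FPKM in controls and at 8.55, 7.95, 8.64 and 8.71 with the inhibitors (-0.35, limma adjusted p = 0.0159), again without overlap. RN-1 against DMSO called both lower (MYBL2 -0.82, FOXM1 -0.50). Neither passed for GSK690 against GSK690* (-0.51 and -0.19) or for GSK690* against DMSO (-0.34 and -0.25). Of the 20 factors listed 8 fell and 1, RB1, rose (0.33), where 11.2% and 9.67% of all genes fell and rose. At 72 h MYBL2 fell by 0.47 and FOXM1 did not pass (-0.19, limma adjusted p = 0.175). In SKNO-1 neither passed with RN-1 or GSK690 against its own control. At 24 h the changes with RN-1 and GSK690 were -0.25 and -0.13 for MYBL2 and -0.10 and -0.12 for FOXM1. At 72 h they were -0.15 and -0.18 for MYBL2 and -0.01 and 0.02 for FOXM1. CDKN1A, the CDK inhibitor p21, passed in no set (0.03 and 0.13 in Kasumi-1, 0.36 and 0.32 in SKNO-1) and stayed under 1 FPKM in Kasumi-1.

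The same lists were read in the other sets. At 72 h in Kasumi-1, where 12.7% of all genes fell, 22 of 25 DNA replication genes fell (median -0.33; MCM4 -0.55, MCM10 -0.52), 10 of 22 kinesin and spindle genes (ARHGAP11A -0.56), 7 of 28 kinetochore genes (CENPM -0.40, CENPI -0.39), 7 of 16 condensin and cohesin genes (SMC1A -0.65, NCAPH -0.43) and 7 of 14 G2 checkpoint genes (GADD45A -0.54, CLSPN -0.51). Also there, 3 of 16 anaphase-promoting complex genes fell (ANAPC1 -0.40, CDC27 -0.27), as did 4 of 8 G1 genes (CDK6 -0.29), while CCND2 rose by 0.38. In SKNO-1 at 24 h, where 3.44% of all genes fell, 10 of 25 DNA replication genes fell (MCM4 -0.42, MCM6 -0.33) beside 1 of the 39 members, and 3 of 28 kinetochore genes did (CENPK and CENPI, both -0.34). The other lists had 0 or 1 fallen gene there: LIN9 (-0.27), ANAPC1 (-0.28), NCAPD3 (-0.21) and CDC25A (-0.27). At 72 h, where 4.17% of all genes fell, 1 replication gene did (MCM6 -0.32), with CDC25A (-0.26) and the ligase subunit CDC26 (-0.40).

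The summed markers of myeloid maturation were higher with the inhibitors in every set, also in SKNO-1 at 72 h, where no member fell without a replicate block. The 12 monocyte and macrophage genes summed to 71.4 to 107 FPKM in controls and 234 to 284 with the inhibitors in Kasumi-1 at 24 h, and to 75.1 to 98.1 and 183 to 245 at 72 h. In SKNO-1 the sums were 79.3 to 117 and 167 to 243 at 24 h, and 101 to 127 and 229 to 274 at 72 h. LYZ made up much of the rise in the sums, with mean levels of 15.4 and 122 FPKM in controls and with the inhibitors in Kasumi-1 at 24 h. Of the 10 that were tested 7 rose in each of the 4 sets, where 9.67%, 13%, 5.65% and 6.91% of all genes rose. Those that did not pass include CD68 and TLR4, which had lower means with the inhibitors in SKNO-1 at 24 h (3.88 and 2.87 FPKM for CD68, 2.95 and 2.46 for TLR4), and CD14 stayed at or below 0.262 FPKM. CD34, a marker of immature blood cells, had higher means with the inhibitors in Kasumi-1 (76.5 and 128 FPKM at 24 h, 83.9 and 223 at 72 h). In SKNO-1 its means were low but also higher (0.172 and 1.49 FPKM at 24 h, 0.477 and 3.41 at 72 h). KIT, also on the blast list, went the other way, with lower means in every set. In Kasumi-1 its means were 235 and 181 FPKM at 24 h and 304 and 213 at 72 h. In SKNO-1 they were 82.9 and 64.6 FPKM at 24 h and 89.9 and 73.4 at 72 h. Across the same 4 sets, in the same order, 37, 20, 1 and 0 members fell in the fit without a replicate block. With the block the first count stayed at 37, and 10, 12 and 4 more members fell in the other sets. The shares of all genes given here are from the fit without the block. The part of these markers in the result was not tested.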

How the data were processed

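Per the submitters' processing notes, reads were handled with TopHat 1.4.1 and Cufflinks on hg19, in an order and with an annotation not given in the sources used here. The authors deposited FPKM per Ensembl gene and library. Missing values (102 cells in 30 genes, none in a member) were left out of the fits. From the FPKM, log2(FPKM + 1) was modelled by limma 3.58.1 (R 4.3.3) with 16 group means and a trend of variance on mean. Genes entered where 2 or more libraries reached 1 FPKM. Contrasts and interaction terms were tested 2-sided, with Benjamini-Hochberg adjustment over all genes tested and a threshold of 0.05. The added 1 understates fold changes of low genes. The fit was checked on simulated data. Relative depth, read from the steps of low FPKM values, ran from 0.634 to 1.48. Python 3.11.15 was used with numpy 2.4.6 and pandas 2.3.3, and plots with matplotlib 3.10.9. The members and lists were chosen with earlier results of these data known. Values are given for 13 followed members, the 2 largest falls and the smallest change in each set, members whose call differed from most, up to 2 called genes per pathway list with the largest change, and FOXM1, MYBL2 and CDKN1A. Alternatives were a pseudocount of 0.1, no filter, median-of-ratios scaling, quantile normalization, a replicate block, each set fitted alone, GSK690* left out of the controls, a term for library name prefix, and each library left out.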

Additional observations from a re-analysis of the deposited data

Results flagged for a closer look

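In the Kasumi-1 controls at 72 h, DMSO replicate 1 stood apart from the other 3 in the mean log2 level of the 39 genes, at 5.28 against 5.12, 5.13 and 5.13. Its gap to the nearest library was 0.938 of the range of the 4, above Dixon's critical value at the 95% level for 4 values. Of the 8 groups of 4 libraries tested 1 was singled out in this way, and chance brings out about 1 in 20. All 4 inhibitor libraries of that set lay below all 4 controls, at 4.87 to 4.99. Without this library 6 members fell rather than 20.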

How the results depend on the processing

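Of the counts of members called, 262 values stayed within 1.5 times the main count and 57 did not. For single genes, the members with FOXM1, MYBL2 and CDKN1A, 168 values lost a call, 46 gained one and 2516 did neither. Among values called in either fit, 0 reversed in sign. Signs of genes without a call did change: in SKNO-1 at 72 h 13 to 33 members were below 0 with each library left out. The 37 genes that fell in Kasumi-1 at 24 h ranged from 27 to 35 over the fits without 1 library, and the 20 at 72 h from 6 to 19. The latter were 12 with no filter and 13 with GSK690* left out of the controls. In SKNO-1 at 24 h the 1 gene was 0 to 2 with each library left out, 0 with no filter, quantile normalization, the median of ratios, the 8 libraries alone or GSK690* left out, and 2 with the libraries as 2 groups of 4. In SKNO-1 at 72 h the 0 became 0 to 3 and, with a term for the library name prefix, 1. For RN-1 in Kasumi-1 the 26 at 24 h were 1 to 16 with each library left out, and the 4 at 72 h were 0 to 6, and 2 with no filter or the median of ratios. For GSK690 the 8 were 0 to 7, and 5 with no filter, and the 3 were 0 to 0, 1 with a pseudocount of 0.1 or quantile normalization, and 0 with no filter or the median of ratios. The change between times in Kasumi-1 was 0 to 1, and 1 with quantile normalization, and that between lines at 72 h 0 to 3; the 24 and 19 control differences were 22 to 24 and 19 to 20. Some of these fits hold fewer libraries or more genes, and otherwise the cause was not tested.

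The labels do not say what a replicate number marks. The deviations of same-numbered samples correlated across genes at 0.133 to 0.450, 0.0431 to 0.481, 0.294 to 0.525 and 0.144 to 0.697 in the 4 sets (Kasumi-1 first, 24 h before 72 h), with all 6 pairs of groups over 0.1 in 3 sets and 4 of 6 in Kasumi-1 at 72 h. Pairs not over 0.1 were found in Kasumi-1 at 72 h alone, and the block is given as an alternative in all sets. With a replicate block the members fallen were 37, 30, 13 and 4 in that order. RN-1 against DMSO then called 19 in Kasumi-1 at 72 h and 11 in SKNO-1 at 24 h, and GSK690 against GSK690* 27 and 20 in Kasumi-1. The block also gave 2 differences between times in Kasumi-1 and 13 and 5 between the lines at 24 and 72 h. All limma shares of all genes in this text are from the fit without the block. Whether the block added calls among the members beyond those among all genes therefore cannot be read from these counts. Depth limits all of this to an unknown degree, since read counts were not used.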

Other observations

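CEP55, which recruits the abscission machinery to the midbody at the end of cytokinesis, rose in 3 of the 4 sets. It was singled out after its values were seen. In Kasumi-1 at 72 h it stood at 11.1 and 9.03 FPKM with DMSO, 11.6 and 10.6 with GSK690*, 17.5 and 17.3 with RN-1, and 17.3 and 17.7 with GSK690. The sides lay apart, and CEP55 rose by 0.68 (limma adjusted p = 2.97e-05). It rose by 0.37 in Kasumi-1 at 24 h and by 0.36 in SKNO-1 at 72 h (limma adjusted p = 0.0109 and 0.0183) and did not pass in SKNO-1 at 24 h (0.16, limma adjusted p = 0.356). It was the 1 gene of the 22 other kinesin and spindle genes to rise in any set.

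RB1, the retinoblastoma protein that restrains E2F factors, rose by 0.33 and 0.53 in Kasumi-1 and by 0.34 in SKNO-1 at 72 h. LIN37, a MuvB subunit, rose by 0.52 in Kasumi-1 at 72 h. Both genes were picked by their values. In SKNO-1 at 24 h RB1 had means of 24.4 FPKM in controls and 28.9 with the inhibitors, and the sides overlapped. RB1 stood at 31.7, 27.6, 30.2 and 30.7 FPKM in the Kasumi-1 controls at 72 h and at 37.0, 47.2, 45.1 and 46.0 with the inhibitors. The lowest of these was RN-1 replicate 1.

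LYZ, the lysozyme gene of the monocyte list, stood at 11.5 and 7.95 FPKM with DMSO and 27.3 and 15 with GSK690* in Kasumi-1 at 24 h, below 94.0 to 151 with the inhibitors. LYZ did not pass for GSK690* against DMSO there, where limma called 0 of all genes. In the same set 36 of the 39 mitotic genes were lower with GSK690* than with DMSO, none by enough to pass, and 25 to 38 were with each library left out in turn.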
